A study of Mus with 18 samples.

Results

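Siglecs are cell-surface lectins that bind sialic acids, and many of them pass an inhibitory signal into the cell by recruiting phosphatases. Transcripts of 4 Siglec genes (Siglece, Cd33, Siglec1 and Siglecg) and of the phosphatase genes Ptpn6, Ptpn11 and Inpp5d were followed in RAW264.7 cells, a macrophage-like line of mouse origin. These 7 genes were chosen by symbol and are 7 of the 35510 genes in the count table. The 18 RNA-seq libraries fall into 6 groups of 3. Cells of 4 groups received LPS, the bacterial lipopolysaccharide that macrophages sense through TLR4, and afterwards a sialic acid polymer, either POx-SA or 1 of 3 polymers whose codes begin with PPLG. These groups are called LPS + POx-SA, LPS + PPLG-SA, LPS + PPLG-2V-SA and LPS + PPLG-4V-SA. The fifth group received LPS alone, and the sixth was left untreated. The labels give no dose, no time, no meaning of the polymer codes and no group that received a polymer without LPS, so the polymer comparisons cannot be matched for dose or time. All cells are of a single line, and nothing in the labels says whether replicates came from separate cultures, so p-values measure only the spread between these libraries, which may be technical.

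Library totals were 9755591 to 19759549 counts. All 8 macrophage markers examined exceeded 3 counts in every group, and their summed level was 5282 to 7913 CPM (counts scaled to library size) with LPS + POx-SA, 4482 to 4729 CPM with LPS + PPLG-SA, 3795 to 4287 CPM for LPS + PPLG-2V-SA, 4708 to 5110 with LPS + PPLG-4V-SA, 6828 to 7885 with LPS and 11560 to 12690 in untreated cells. Lyz2 carried the largest part of that sum with LPS (3747 CPM) and in untreated cells (7742 CPM), and other members ran differently. Adgre1, which encodes F4/80, averaged 33.0 CPM with LPS + POx-SA, 585 with LPS + PPLG-SA, 363 with LPS + PPLG-2V-SA and 523 with LPS + PPLG-4V-SA, against 48.8 with LPS and 65.5 in untreated cells. Fcgr1, an Fc receptor gene, averaged 20.6 CPM with LPS + POx-SA and 130 to 202 CPM in the PPLG groups, against 91.9 with LPS and 24.2 in untreated cells. Dendritic-cell markers summed to 6.10 to 12.9 CPM in the PPLG libraries and 1.01 to 4.45 CPM in the others, with Siglech at 0 throughout, and T-cell and eosinophil or mast-cell markers to at most 0.626 and 0.376 CPM. The part of these markers in the results was not tested. The LPS and LPS + POx-SA libraries differed among themselves more than those of other groups. A chi-square statistic of the counts, per degree of freedom, was 13.0 to 82.8 in pairs of replicates within these 2 groups and 2.64 to 14.2 within the others. Replicate 3 of LPS stood apart from replicates 1 and 2, at 57.0 and 75.2. With replicate 3 of both groups left out, 1 of the 68 calls made for the genes described here was lost and 6 were gained.

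Siglec-E (Siglece) and CD33 (Cd33) are members of the fast-evolving CD33-related Siglecs. Siglec-E carries in its cytoplasmic tail the immunoreceptor tyrosine-based inhibitory motif (ITIM), which, once phosphorylated by Src-family kinases, recruits phosphatases with SH2 domains. Mouse CD33 differs from human CD33 in its tail and can associate with the activating adaptor DAP12. Sialoadhesin (Siglec1) has a long extracellular part and a short tail without an ITIM, and it serves in adhesion and in the capture of sialylated particles by macrophages. Siglec-G (Siglecg) is an inhibitory receptor best known from B cells. SHP-1 (Ptpn6) and SHP-2 (Ptpn11) are tyrosine phosphatases with SH2 domains, SHP-1 being mainly found in haematopoietic cells and SHP-2 in most cells. SHIP-1 (Inpp5d) removes a phosphate from the inositol ring of the lipid made by phosphoinositide 3-kinase.

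Levels of different genes were set side by side per transcript length, as the authors' FPKM (fragments scaled to gene length and library total). On that scale the SHP-1 transcript was the most abundant of the 7, at 48.1 to 330 FPKM over the 18 libraries, with a median of 166. SHIP-1 stood at 24.5 to 44.6 FPKM and SHP-2 at 14.1 to 30.4. Among the receptors, Siglec1 reached 4.09 to 34.3 FPKM, Cd33 2.55 to 30.8 and Siglece 0.46 to 24.9. The lowest Ptpn6 value in any library lay above the highest value of every other gene of the 7. Differences between groups were tested on the counts with edgeR's quasi-likelihood F test in 1 fit of all 18 libraries, with Benjamini-Hochberg adjustment over the 13482 genes tested. Genes with an adjusted p below 0.05 count as called. CPM here are scaled by TMM factors, and errors of means are SD of 3 libraries.

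**Figure D1:**
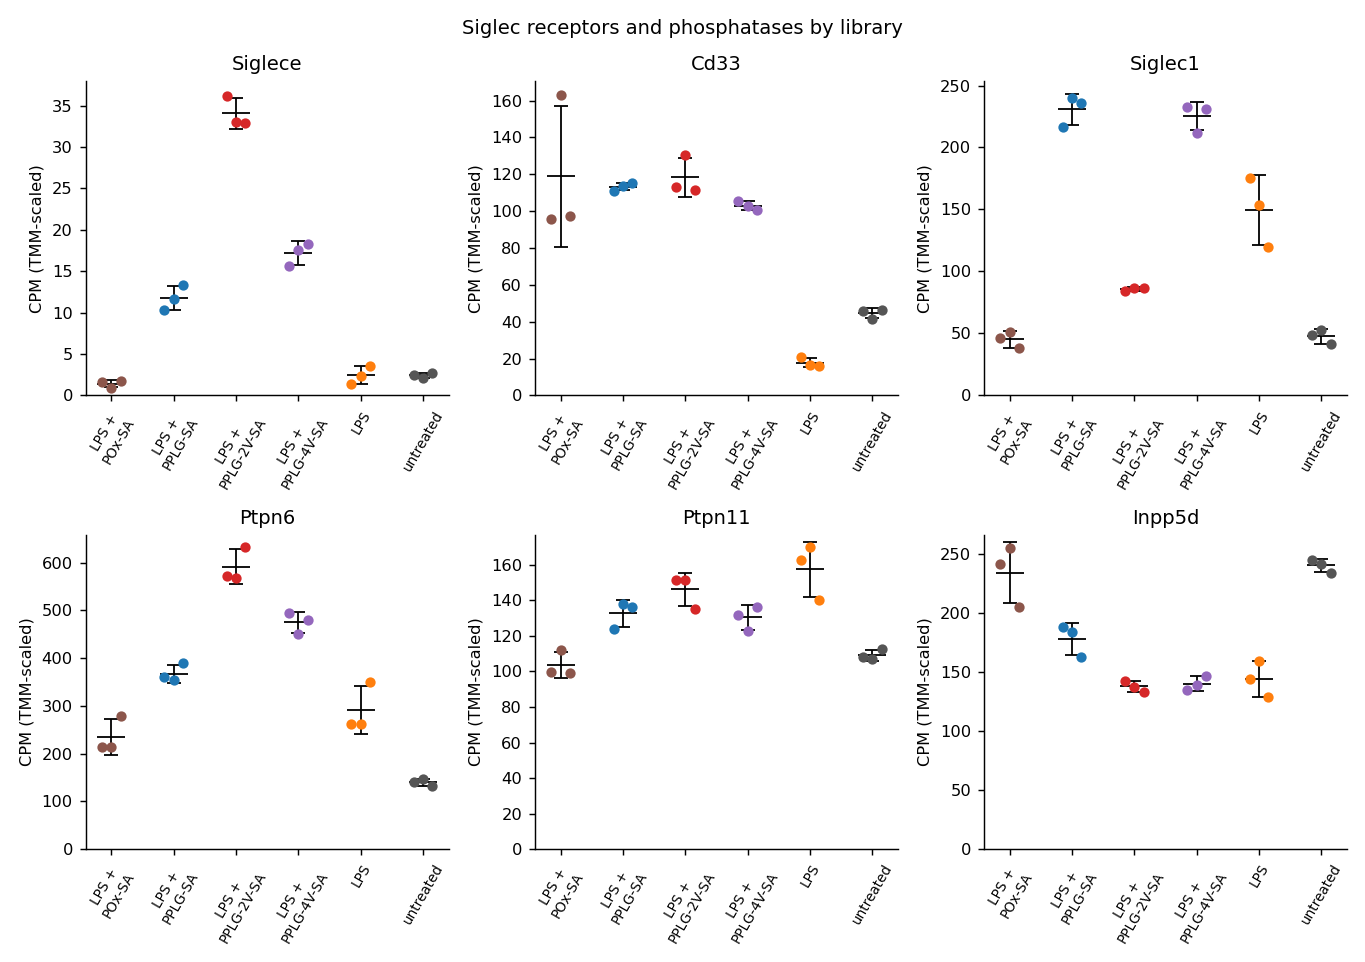
Level of 6 genes in each library (points), in CPM scaled by TMM factors on a linear axis from 0, with the mean and SD of 3 libraries (bars) per group. Siglece is highest with LPS + PPLG-2V-SA (32.9 to 36.2 CPM), and Cd33 is above 95 CPM in all 12 polymer libraries and below 21 CPM in the LPS libraries.

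Siglece was scarce in untreated and LPS-treated cells and higher in all 3 groups that received a PPLG polymer after LPS. It had 10.3, 11.6 and 13.3 CPM with LPS + PPLG-SA, 36.2, 33.1 and 32.9 CPM with LPS + PPLG-2V-SA and 15.6, 17.6 and 18.3 CPM with LPS + PPLG-4V-SA, against 1.42, 2.35 and 3.59 CPM with LPS. All 9 PPLG libraries lay above all LPS libraries, and the 3 PPLG groups did not overlap each other. The LPS values rest on 22, 36 and 54 counts. Against LPS, Siglece rose by 2.26 ± 0.23 on the log2 scale with LPS + PPLG-SA (SE, adjusted p = 2.78e-07). It rose by 3.79 ± 0.23 with LPS + PPLG-2V-SA (adjusted p = 2.66e-10) and by 2.81 ± 0.23 with LPS + PPLG-4V-SA (adjusted p = 1.92e-08). These 3 calls held under all 29 alternatives tried. In bulk RNA, a change in the number of cells that carry a transcript and a change in the transcript per cell cannot be told apart.

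The LPS + POx-SA libraries had 1.56, 0.907 and 1.76 CPM of Siglece, from 21, 12 and 25 counts. Of the 3 values, 2 lay between the lowest and the middle LPS value, so these groups overlapped. The log2 difference from LPS was -0.79 ± 0.29 (adjusted p = 0.0324), a call that depended on single libraries: it was lost with LPS replicate 2 left out (adjusted p = 0.0527), without LPS replicate 3 (log2 difference -0.39, adjusted p = 0.261), without LPS + POx-SA replicate 1 (0.0536) or without LPS + POx-SA replicate 2 (0.156). With the replicate number as a block the call held in the fit of all 18 libraries (-0.78, adjusted p = 0.0267) and was lost in a fit of these 2 groups alone (-0.75, adjusted p = 0.180). It was also lost with replicate 3 of both groups left out (-0.59, adjusted p = 0.127). Untreated cells had 2.51, 2.10 and 2.68 CPM, inside the range of the LPS libraries. For LPS against untreated the log2 difference was 0.01 ± 0.29, with a 95% interval of -0.59 to 0.61 (adjusted p = 0.981). LPS + POx-SA was called lower than untreated (adjusted p = 0.0415), which was lost under 11 of 29 alternatives, including each untreated library left out in turn (adjusted p 0.0527 to 0.133) and LPS + POx-SA replicates 1 (0.0646) and 2 (0.172).

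Siglece shares its locus with Ctu1, which encodes a tRNA thiolation enzyme, and with Ceacam18, according to a RefSeq table of the assembly GRCm38. Whether counting used the strand is not given in the sources used here, so reads of overlapping exons could be split between these genes. Ctu1 averaged 8.95 CPM with LPS + POx-SA, 9.24 with LPS + PPLG-SA, 15.8 with LPS + PPLG-2V-SA, 13.1 with LPS + PPLG-4V-SA, 15.3 with LPS and 2.75 in untreated cells. Its log2 difference from LPS was -0.77 ± 0.13 with LPS + POx-SA (adjusted p = 1.57e-04) and -0.72 ± 0.13 with LPS + PPLG-SA (adjusted p = 1.67e-04). With LPS + PPLG-2V-SA it was 0.05 ± 0.13 (0.750) and with LPS + PPLG-4V-SA -0.22 ± 0.13 (0.165). The part of shared reads in the Siglece values was not tested. Ceacam18 had at most 9 counts in a library.

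Cd33 fell with LPS and was high in every polymer group. It had 20.7, 16.4 and 16.2 CPM with LPS, against 45.8, 41.5 and 46.5 CPM in untreated cells, and these groups did not overlap. The log2 difference was -1.33 ± 0.17 (adjusted p = 3.24e-06). The polymer libraries were all higher: 96.0, 163 and 97.4 CPM with LPS + POx-SA, 111.1, 113.7 and 115.1 CPM with LPS + PPLG-SA, 113.3, 130.6 and 111.5 CPM with LPS + PPLG-2V-SA, and 105.6, 102.8 and 100.7 CPM with LPS + PPLG-4V-SA. Every polymer library thus exceeded every untreated library as well as every LPS library. Replicate 2 of LPS + POx-SA stood above the other 11.

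Against LPS, Cd33 rose by 2.74 ± 0.17 on the log2 scale with LPS + POx-SA (adjusted p = 1.77e-09), by 2.67 ± 0.17 with LPS + PPLG-SA (7.62e-10), by 2.74 ± 0.17 with LPS + PPLG-2V-SA (3.63e-10) and by 2.54 ± 0.17 with LPS + PPLG-4V-SA (1.57e-09). These 4 comparisons share the LPS libraries. Against untreated cells the differences were smaller, with LPS + POx-SA at 1.41, LPS + PPLG-SA at 1.34, LPS + PPLG-2V-SA at 1.41 and LPS + PPLG-4V-SA at 1.21, and all were called. No difference of Cd33 between 2 polymers was called in the fit of all libraries. The largest, LPS + PPLG-4V-SA against LPS + POx-SA, was -0.21 with a 95% interval of -0.53 to 0.12 (adjusted p = 0.270). Comparisons with LPS + POx-SA turned on single libraries. Without LPS + POx-SA replicate 2, Cd33 was called higher with LPS + PPLG-2V-SA than with LPS + POx-SA (log2 difference 0.25, adjusted p = 0.0473), and without LPS + POx-SA replicate 1 it was called lower with LPS + PPLG-4V-SA than with LPS + POx-SA (-0.39, adjusted p = 0.0423). In edgeR fits of only 2 groups, Cd33 was called lower with LPS + PPLG-4V-SA than with LPS + PPLG-SA (-0.15, adjusted p = 0.0394). There it was also called lower than with LPS + PPLG-2V-SA (-0.19, adjusted p = 0.0409).

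Siglec1 rose with LPS and separated the polymers into those above and those below the LPS level. It had 175, 154 and 119 CPM with LPS, against 48.5, 53.2 and 41.5 CPM in untreated cells, with no overlap (log2 difference 1.65 ± 0.14, adjusted p = 2.66e-08). With LPS + PPLG-SA it had 216, 240 and 236 CPM, and with LPS + PPLG-4V-SA 233, 212 and 231 CPM. These 6 libraries lay above every LPS library. The rise over LPS was 0.63 ± 0.13 with LPS + PPLG-SA (adjusted p = 5.36e-04) and 0.59 ± 0.13 with LPS + PPLG-4V-SA (adjusted p = 9.60e-04).

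The other 2 polymer groups lay below the LPS level of Siglec1. With LPS + POx-SA it had 46.3, 51.3 and 37.9 CPM, within or just under the range of untreated cells. With LPS + PPLG-2V-SA it had 84.4, 86.9 and 87.0 CPM, between the untreated and the LPS libraries and touching neither. Siglec1 fell by 1.73 ± 0.14 against LPS with LPS + POx-SA (log2, adjusted p = 2.45e-08) and by 0.80 ± 0.13 with LPS + PPLG-2V-SA (adjusted p = 5.23e-05). Against untreated cells the log2 difference with LPS + POx-SA was -0.08, with a 95% interval of -0.37 to 0.21 (adjusted p = 0.642). All Siglec1 calls against LPS and against untreated cells held under every alternative.

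Siglecg was at the limit of detection. It had 1 count in LPS replicate 2, 1 count in LPS + PPLG-4V-SA replicate 1 and 0 counts in the other 16 libraries, 2 of 266967414 counts in all, and it was not tested. A count of 0 allows up to 3 counts, which is 0.152 CPM in the deepest library and 0.308 CPM in the shallowest (counting error only). B-cell markers were also low. The summed level of the 5 markers found in the table was at most 2.57 CPM in any library, and Ms4a1, which encodes CD20, had 0 counts in every group.

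Per length, the 3 PPLG groups had similar sums of Siglec transcripts but not a similar make-up. Siglec1, Cd33 and Siglece together amounted to 27.0 ± 8.5 FPKM with LPS + POx-SA, 65.8 ± 3.8 with LPS + PPLG-SA, 64.0 ± 2.8 with LPS + PPLG-2V-SA and 68.4 ± 3.3 with LPS + PPLG-4V-SA, against 24.4 ± 5.0 with LPS and 12.9 ± 0.71 in untreated cells (SD, n = 3 each). Siglec1 made up 78.9% of that sum with LPS. With LPS + POx-SA the leading gene was Cd33, at 76.3%, and with LPS + PPLG-2V-SA Cd33 was at 43.8%, Siglece at 36.4% and Siglec1 at 19.8%. LPS + PPLG-SA and LPS + PPLG-4V-SA were close in make-up, with Siglec1 at 49.7% and 48.3%, Cd33 at 38.7% and 34.9% and Siglece at 11.6% and 16.8%. In untreated cells Cd33 led at 55.1%, with Siglec1 at 36.4% and Siglece at 8.54%. These shares are descriptions and were not tested. They rest on the authors' FPKM, and the FPKM of Cd33 per CPM on library totals was not constant. It averaged 0.188 with LPS + POx-SA and 0.211 with LPS + PPLG-SA, and ran from 0.168 to 0.230 among the LPS libraries. Its part in the shares was not tested. On log2(FPKM + 1) the median difference of all tested genes from untreated cells was 0.15 with LPS + POx-SA and 0.22 with LPS. With LPS + PPLG-SA it was 0.30, with LPS + PPLG-2V-SA 0.38 and with LPS + PPLG-4V-SA 0.38. The part of this shared shift in the sums was not tested.

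**Figure D2:**
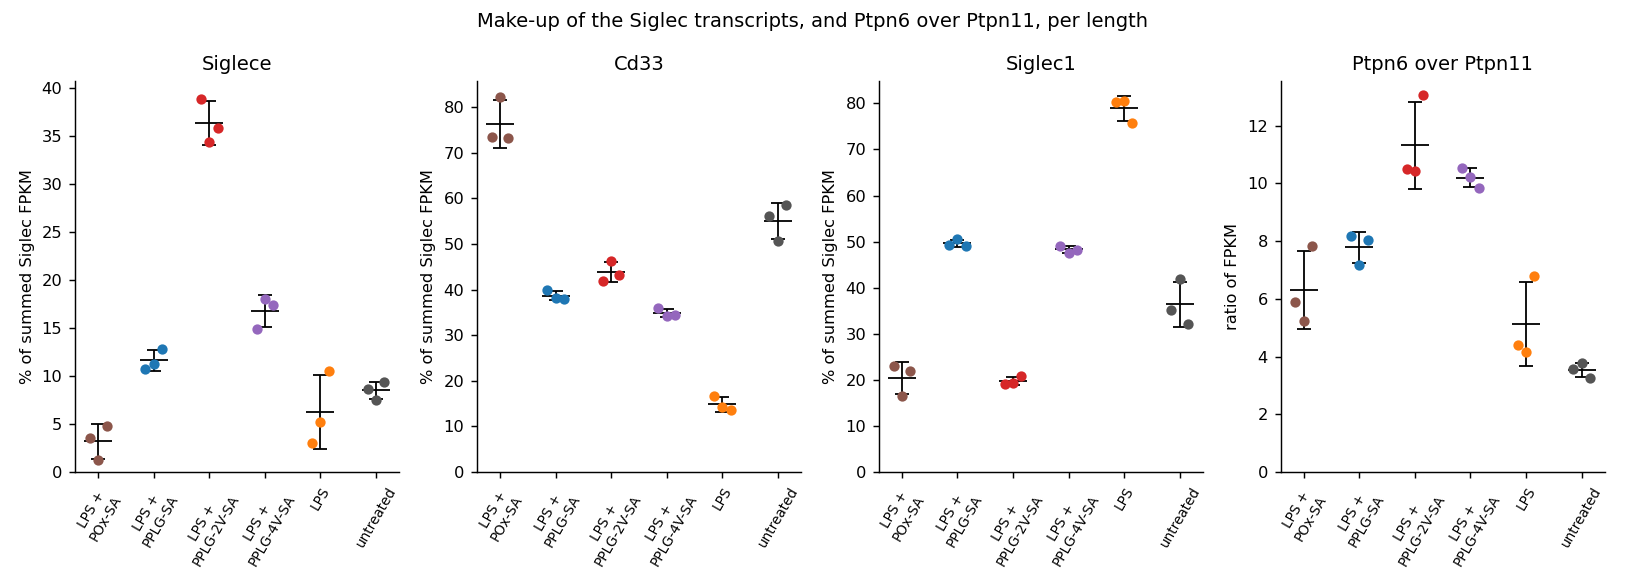
Share of each Siglec gene in the summed FPKM of Siglec1, Cd33 and Siglece (first 3 panels, percent) and ratio of Ptpn6 to Ptpn11 FPKM (last panel), per library (points) with the mean and SD of 3 libraries (bars). Siglece takes 36.4% with LPS + PPLG-2V-SA and 6.25% with LPS, and the Ptpn6 to Ptpn11 ratio averages 11.3 with LPS + PPLG-2V-SA and 5.12 with LPS.

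Ptpn6, encoding SHP-1, rose with LPS and rose further with the PPLG polymers. It had 263, 262 and 349 CPM with LPS, against 140.4, 146.6 and 132.1 CPM in untreated cells, with no overlap. The log2 difference was 1.06 ± 0.12 (adjusted p = 1.33e-06). With LPS + PPLG-2V-SA it had 572, 568 and 633 CPM and with LPS + PPLG-4V-SA 495, 451 and 480 CPM, all above every LPS library. The rise over LPS was 1.02 ± 0.12 with LPS + PPLG-2V-SA (adjusted p = 1.53e-06) and 0.71 ± 0.12 with LPS + PPLG-4V-SA (adjusted p = 1.09e-04), and both calls held under every alternative.

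With LPS + PPLG-SA Ptpn6 had 359.6, 353.8 and 388.7 CPM, the lowest of which was just above LPS replicate 3. The log2 difference of 0.34 ± 0.12 was called (adjusted p = 0.0251) and was lost without LPS replicate 1 (0.105), without LPS replicate 2 (0.0990) or without LPS + PPLG-SA replicate 3 (0.0828). With LPS + POx-SA it had 215, 213 and 279 CPM, of which replicate 3 lay inside the LPS range. The difference from LPS, -0.31 ± 0.12 (adjusted p = 0.0497), was lost under 20 of 30 alternatives, among them 15 of the 18 fits that left out a library (adjusted p 0.0537 to 0.357). With LPS replicate 3 left out it was -0.14. LPS + POx-SA was below LPS at each of the 3 replicate numbers. The labels do not say whether these numbers pair the libraries, and the correlation of their deviations cannot settle it. With the replicate number as a block the call held in the fit of all 18 libraries (-0.30, adjusted p = 0.0281), and it was lost in a fit of these 2 groups alone (-0.30, adjusted p = 0.0585). It also held with replicate 3 of both groups left out (-0.28, adjusted p = 0.0171).

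Ptpn11, encoding SHP-2, moved over a narrower range. It had 162.5, 170.1 and 140.3 CPM with LPS, against 108.1, 106.8 and 112.6 CPM in untreated cells, with no overlap (log2 difference 0.53 ± 0.09, adjusted p = 1.10e-04). With LPS + POx-SA it had 99.9, 112 and 99.3 CPM, all below every LPS library and overlapping the untreated libraries. It fell by 0.60 ± 0.09 against LPS there (log2, adjusted p = 4.91e-05), and that call held under all 30 alternatives. With LPS + PPLG-SA it had 124, 138 and 136 CPM, with LPS + PPLG-2V-SA 152, 152 and 135 CPM and with LPS + PPLG-4V-SA 132, 123 and 136 CPM. Of these, LPS + PPLG-2V-SA overlapped the LPS libraries and the other groups lay just below them. The log2 differences from LPS were -0.25 ± 0.09 with LPS + PPLG-SA (adjusted p = 0.0287), -0.11 ± 0.09 with LPS + PPLG-2V-SA (95% interval -0.30 to 0.09, adjusted p = 0.323) and -0.27 ± 0.09 with LPS + PPLG-4V-SA (adjusted p = 0.0187). The call with LPS + PPLG-SA was lost under 10 of 29 alternatives and that with LPS + PPLG-4V-SA under 9 of 29. Both were lost without LPS replicate 1 (adjusted p = 0.0819 and 0.0605) and without LPS replicate 2 (0.123 and 0.0881). The call with LPS + PPLG-SA was also lost without its own replicate 1 (0.125) or 3 (0.0522), and that with LPS + PPLG-4V-SA without its replicate 2 (0.0879).

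The ratio of Ptpn6 to Ptpn11, per length, was 6.32 ± 1.35 with LPS + POx-SA, 7.79 ± 0.54 with LPS + PPLG-SA, 11.3 ± 1.5 with LPS + PPLG-2V-SA and 10.2 ± 0.34 with LPS + PPLG-4V-SA, against 5.12 ± 1.45 with LPS and 3.53 ± 0.25 in untreated cells (SD of the FPKM ratio, n = 3 each). The SHP-1 transcript thus exceeded that of SHP-2 in every group mean, and the PPLG groups had the highest mean ratios. Single libraries overlapped, with LPS + POx-SA replicate 3 at 7.83 and LPS + PPLG-SA replicate 2 at 7.18. The ratios were not tested.

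Inpp5d, encoding SHIP-1, fell with LPS. It had 144, 160 and 129 CPM with LPS, against 245, 242 and 234 CPM in untreated cells, with no overlap (log2 difference -0.74 ± 0.10, adjusted p = 6.86e-06). With LPS + POx-SA it had 241, 256 and 206 CPM, above every LPS library and overlapping the untreated ones. The log2 difference from LPS was 0.70 ± 0.10 (adjusted p = 2.16e-05) and that from untreated cells -0.04, with a 95% interval of -0.25 to 0.17 (adjusted p = 0.763). With LPS + PPLG-2V-SA it had 142, 138 and 134 CPM and with LPS + PPLG-4V-SA 135, 139 and 147 CPM, all within the LPS range. Their log2 differences from LPS were -0.07 (95% interval -0.28 to 0.14, adjusted p = 0.578) and -0.04 (95% interval -0.25 to 0.17, adjusted p = 0.744).

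For LPS + PPLG-SA the direction of Inpp5d depended on the scale. It had 188, 184 and 163 CPM, above every LPS library, and was called higher than LPS on the counts (log2 difference 0.31 ± 0.10, adjusted p = 0.0138). That call was lost without LPS replicate 3 (0.0838) or LPS + PPLG-SA replicate 1 (0.0573). On the counts it was also lost with no filter on low counts (0.053) and in a fit of these 2 groups alone (0.0695). On the authors' FPKM the LPS + PPLG-SA libraries were at 25.7 ± 1.1 FPKM, against 28.2 ± 3.4 FPKM with LPS, and limma on log2(FPKM + 1) gave -0.12 (adjusted p = 0.241). The FPKM per CPM of Inpp5d, a quantity that moves with the gene length used and with the library totals behind either unit, was 0.136 ± 0.0059 with LPS + PPLG-SA, against 0.199 ± 0.015 with LPS and 0.202 ± 0.0097 in untreated cells. To take out shifts shared by a whole library, the log2 of FPKM per CPM was then set relative to its median over 9201 genes in each library. The group means of this relative quantity spanned 0.61 for Inpp5d, against a median span of 0.09 over these genes, and 4.15% of them had a span at least as wide. The span of the relative quantity was 0.19 for Cd33, 0.11 for Siglec1, 0.04 for Ptpn6 and 0.01 for Ptpn11. How the authors set the length behind FPKM is not given in the sources used here, and its part in the difference was not tested.

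**Figure D3:**
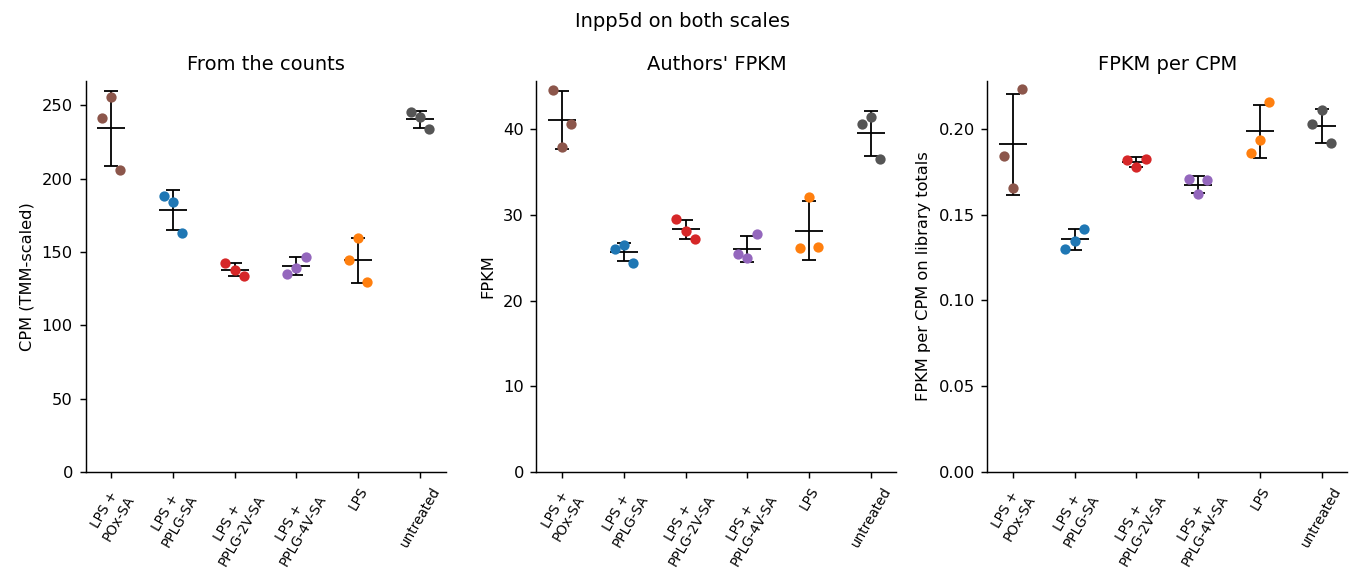
Inpp5d in each library (points) as CPM scaled by TMM factors, as the authors' FPKM and as FPKM per CPM on library totals, with the mean and SD of 3 libraries (bars). LPS + PPLG-SA averages 178 CPM against 144 CPM with LPS on the counts, and 25.7 FPKM against 28.2 FPKM in the authors' table.

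Calls were common among all tested genes, so the count of calls among the 6 tested Siglec and phosphatase genes is given beside the share of all genes. For LPS against untreated, 3 of the 6 were higher (Siglec1, Ptpn6 and Ptpn11), beside 30.8% of all genes, and 2 lower (Cd33 and Inpp5d), beside 28.4%. For LPS + POx-SA against LPS, 2 were higher (Cd33 and Inpp5d), beside 22.2%, and 4 lower, beside 24.1%. For LPS + PPLG-SA against LPS, 5 were higher, beside 29.2%, and Ptpn11 was lower, beside 30.7%. For LPS + PPLG-2V-SA against LPS, Siglece, Cd33 and Ptpn6 were higher, beside 30.8%, and Siglec1 was lower, beside 30.2%. For LPS + PPLG-4V-SA against LPS, 4 were higher, beside 28.0%, and Ptpn11 was lower, beside 27.1%. These comparisons all share the LPS libraries. The counts include calls described above as lost under some alternatives. They are Siglece and Ptpn6 with LPS + POx-SA, Ptpn6, Ptpn11 and Inpp5d with LPS + PPLG-SA, and Ptpn11 with LPS + PPLG-4V-SA.

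Against untreated cells, the 3 PPLG groups each had 5 genes higher and Inpp5d lower. Of these calls, Ptpn11 with LPS + PPLG-4V-SA (log2 difference 0.26, adjusted p = 0.0211) was lost under 6 of 29 alternatives. They were DESeq2 (0.0889), its size factors in edgeR (0.107), a filter of 1 CPM (0.0558), and fits without untreated replicate 1 (0.0840), untreated replicate 2 (0.0932) or LPS + PPLG-4V-SA replicate 3 (0.0670). Ptpn11 with LPS + PPLG-SA (0.28, adjusted p = 0.0131) was lost without untreated replicate 1 (0.0505) or 2 (0.0561). Of all genes, 35.1% were higher and 32.8% lower with LPS + PPLG-SA, 38.2% and 35.8% with LPS + PPLG-2V-SA, and with LPS + PPLG-4V-SA the shares were 36.7% and 33.6%. LPS + POx-SA had Cd33 and Ptpn6 higher, beside 30.4% of all genes, and Siglece lower, beside 27.9%. Siglec1, Ptpn11 and Inpp5d of LPS + POx-SA overlapped the untreated libraries and were not called.

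**Figure D4:**
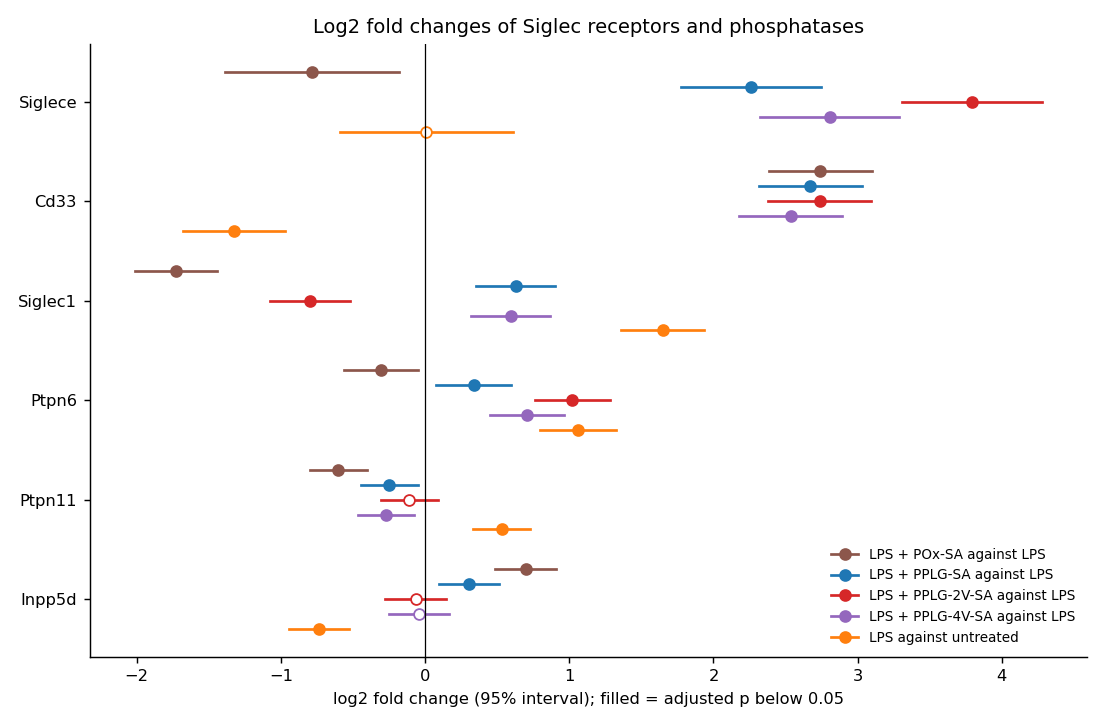
Log2 fold change with its 95% interval for 6 genes, for each polymer group against LPS and for LPS against untreated cells, on a linear axis, with filled points at an adjusted p below 0.05. Siglece spans -0.79 with LPS + POx-SA to 3.79 with LPS + PPLG-2V-SA, while the Cd33 values of the 4 polymers lie between 2.54 and 2.74.

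The polymers were compared directly in 6 pairs, with the caution that the labels give neither doses nor times. Each PPLG polymer against POx-SA had 4 genes higher (Siglece, Siglec1, Ptpn6 and Ptpn11) and Inpp5d lower. Of all genes, 28.3% were higher and 29.5% lower for LPS + PPLG-SA, 32.4% and 31.6% for LPS + PPLG-2V-SA, and for LPS + PPLG-4V-SA the shares were 29.6% and 28.3%. For Siglece the log2 difference from LPS + POx-SA was 3.05 ± 0.25 with LPS + PPLG-SA, 4.58 ± 0.25 with LPS + PPLG-2V-SA and 3.59 ± 0.25 with LPS + PPLG-4V-SA, with a largest adjusted p of 2.08e-08. For Siglec1 these differences were 2.35 ± 0.14 with LPS + PPLG-SA (adjusted p = 2.98e-10), 0.93 ± 0.13 with LPS + PPLG-2V-SA (1.02e-05) and 2.32 ± 0.14 with LPS + PPLG-4V-SA (3.22e-10). PPLG-2V-SA thus stood nearest to POx-SA in Siglec1 and farthest from it in Siglece.

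LPS + PPLG-2V-SA against LPS + PPLG-SA had 2 genes higher, beside 14.7% of all genes, and 2 lower, beside 13.2%. Siglece was higher by 1.53 ± 0.20 (log2, adjusted p = 2.54e-05) and Ptpn6 by 0.69 ± 0.12 (5.20e-04). Siglec1 was lower, at -1.42 ± 0.13 (7.38e-07), and so was Inpp5d, at -0.37 ± 0.10 (0.00998). On FPKM, Inpp5d again had the opposite sign (0.14, adjusted p = 0.273). That Inpp5d call was also lost without LPS + PPLG-SA replicate 1 (0.0523). LPS + PPLG-4V-SA against LPS + PPLG-2V-SA had Siglec1 higher, by 1.39 ± 0.13 (adjusted p = 1.48e-06), beside 7.53% of all genes, and Siglece lower, at -0.99 ± 0.19 (0.00204), beside 4.47%.

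For LPS + PPLG-4V-SA against LPS + PPLG-SA, edgeR's test called 0 of the 6 genes, beside 1.65% of all genes. At an unadjusted p below 0.05 there were 3 genes. Siglece had a log2 difference of 0.54 (95% interval 0.13 to 0.96, adjusted p = 0.155), Ptpn6 of 0.37 (0.11 to 0.63, adjusted p = 0.121) and Inpp5d of -0.35 (-0.56 to -0.14, adjusted p = 0.0780). DESeq2 called 1 gene, Inpp5d, beside 5.17% of all genes, limma on log2(FPKM + 1) called Ptpn6, beside 4.20%, and edgeR fitted to these 2 groups alone called 4, beside 27.3%. The Inpp5d difference was absent on the authors' FPKM, where limma on log2(FPKM + 1) gave 0.02 (adjusted p = 0.945). For Siglec1 the 95% interval was -0.31 to 0.24 and for Cd33 -0.46 to 0.19.

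Ordered by mean CPM, the groups stood in a different order for each gene. Siglece was lowest with LPS + POx-SA, then came untreated and LPS, then LPS + PPLG-SA and LPS + PPLG-4V-SA, and highest was LPS + PPLG-2V-SA. Cd33 was lowest with LPS, then came untreated cells, and the 4 polymer groups followed with no called difference among them in the fit of all libraries. Siglec1 was lowest with LPS + POx-SA and untreated, followed by LPS + PPLG-2V-SA, then by LPS, and highest with LPS + PPLG-4V-SA and LPS + PPLG-SA. Ptpn6 was lowest in untreated cells, followed by LPS + POx-SA, then by LPS, then by LPS + PPLG-SA, LPS + PPLG-4V-SA and LPS + PPLG-2V-SA, of which the first and the last differed (adjusted p = 5.20e-04). Ptpn11 was lowest with LPS + POx-SA and untreated, followed by LPS + PPLG-4V-SA, LPS + PPLG-SA, LPS + PPLG-2V-SA and LPS. Of these, LPS + PPLG-4V-SA and LPS + PPLG-SA were called lower than LPS (adjusted p = 0.0187 and 0.0287). Inpp5d was lowest with LPS + PPLG-2V-SA, LPS + PPLG-4V-SA and LPS, followed by LPS + PPLG-SA, and highest with LPS + POx-SA and untreated. Groups next to each other in an order and named together had no called difference.

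Partners and relatives of these genes were taken from 5 lists with 95 genes, of which 82 were tested. Of 10 other Siglecs and Siglec ligands or adaptors, Siglech had 0 counts, Siglecf 6, Cd22 36 and Siglec15 52 in all libraries together, and 6 genes were tested. For LPS against untreated 1 was higher and 2 lower, and against LPS the counts were 1 and 2 with LPS + POx-SA, 2 and 3 with LPS + PPLG-SA, then 2 and 2 with LPS + PPLG-2V-SA. With LPS + PPLG-4V-SA 3 were higher and 3 lower than with LPS. These counts and those of the lists that follow stand beside 30.8% of all genes higher and 28.4% lower for LPS against untreated. Against LPS the shares of all genes were 22.2% higher and 24.1% lower with LPS + POx-SA, 29.2% and 30.7% with LPS + PPLG-SA, then 30.8% and 30.2% with LPS + PPLG-2V-SA. For LPS + PPLG-4V-SA they were 28.0% and 27.1%. Tyrobp, which encodes the adaptor DAP12, was lower with LPS (142 ± 16 CPM) than in untreated cells (333 ± 17 CPM), a log2 difference of -1.23 ± 0.13 (adjusted p = 5.12e-07). Cd52, a sialylated surface protein that binds SIGLEC10 in humans, was higher than with LPS in all 4 polymer groups. It averaged 119 CPM with LPS + POx-SA, 103 with LPS + PPLG-SA, 115 with LPS + PPLG-2V-SA and 120.3 with LPS + PPLG-4V-SA, against 48.3 with LPS, and the largest adjusted p was 3.28e-05. Spn, the sialylated protein CD43 and a ligand of Siglec-1, was higher with LPS + PPLG-2V-SA (21.5 ± 1.7 CPM) and lower with LPS + POx-SA (5.83 ± 1.10 CPM) than with LPS (13.2 ± 1.6 CPM), at adjusted p = 7.98e-04 and 2.38e-05. Cd24a, which encodes a ligand of Siglec-G, was lower with LPS + PPLG-SA (0.216 CPM) and LPS + PPLG-4V-SA (0.177 CPM) than with LPS (1.20 CPM), at adjusted p = 0.00137 and 6.11e-04.

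All 20 of the other inhibitory receptors listed were tested, a list that also holds receptors without a classical ITIM. For LPS against untreated 6 were higher and 7 lower (beside 30.8% and 28.4% of all genes). Against LPS, 4 were higher and 4 lower with LPS + POx-SA, 9 and 7 with LPS + PPLG-SA, 6 and 6 with LPS + PPLG-2V-SA, and with LPS + PPLG-4V-SA 8 were higher and 6 lower. Of all genes, 22.2% to 30.8% were higher and 24.1% to 30.7% lower in these 4 comparisons. Several of the list's counts are near these shares. The list's median log2 difference was -0.02 with LPS + POx-SA, 0.30 with LPS + PPLG-SA, -0.05 with LPS + PPLG-2V-SA and 0.25 with LPS + PPLG-4V-SA, where the medians of all tested genes were at most 0.03. Lilrb4a, an ITIM receptor of myeloid cells, was lower with LPS + PPLG-2V-SA (451 ± 9.0 CPM) and LPS + PPLG-4V-SA (953 ± 51 CPM) than with LPS (2757 ± 103 CPM), at adjusted p = 3.30e-13 and 2.86e-10. Pilra, a paired receptor that binds sialylated glycoproteins, was at 2.54 ± 0.21 CPM with LPS + PPLG-SA and 3.80 ± 0.24 CPM with LPS + PPLG-4V-SA, against 34.8 ± 3.6 CPM with LPS (adjusted p = 1.10e-10 and 4.26e-10). Clec12a, an inhibitory C-type lectin, was higher with LPS + PPLG-SA (75.1 ± 2.8 CPM) than with LPS (13.2 ± 1.7 CPM), at adjusted p = 2.72e-10.

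Other receptors of this list differed too. Slamf7, a receptor of the SLAM family, was at 0.664 ± 0.120 CPM with LPS + PPLG-2V-SA, against 30.3 ± 6.5 CPM with LPS (adjusted p = 9.57e-12). Fcgr2b, the inhibitory Fc receptor, was lower with LPS + POx-SA (142 ± 3.3 CPM) than with LPS (246 ± 17 CPM), and so was Vsir (68.2 ± 8.6 CPM against 118 ± 12 CPM), at adjusted p = 1.32e-06 and 1.09e-05. Between polymers, LPS + PPLG-4V-SA against LPS + PPLG-2V-SA had 9 of the 20 higher and 0 lower, beside 7.53% and 4.47% of all genes, with a median log2 difference of 0.41 beside 0.00 over all genes. LPS + PPLG-2V-SA against LPS + PPLG-SA had 0 higher and 7 lower, beside 14.7% and 13.2%, with a median of -0.24 beside 0.02. The summed level of 7 neutrophil markers, in untreated cells nearly all S100a8, was 36.1 to 63.7 CPM with LPS + POx-SA, at most 0.413 CPM in any PPLG library, 150 to 255 CPM with LPS and 2396 to 2655 CPM in untreated cells, while Elane and Ngp had 0 counts in every group. Their part in these results was not tested.

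A further list held Src-family and Syk kinases with associated adaptors and signalling proteins, of which 18 of 20 were tested. With LPS against untreated 7 were higher and 6 lower (beside 30.8% and 28.4% of all genes). Against LPS, 7 were higher and 8 lower with LPS + POx-SA, 6 and 8 with LPS + PPLG-SA, 5 and 9 with LPS + PPLG-2V-SA, and with LPS + PPLG-4V-SA 7 were higher and 9 lower, where 22.2% to 30.8% of all genes were higher and 24.1% to 30.7% lower. Lyn, the kinase that phosphorylates ITIMs in many myeloid cells, was at 264 ± 10.0 CPM with LPS + POx-SA and 242 ± 1.1 CPM with LPS + PPLG-2V-SA, against 550 ± 22 CPM with LPS (adjusted p = 7.61e-09 and 4.96e-10). Btk, a kinase downstream of Syk, was higher with LPS + PPLG-2V-SA (71.8 ± 3.4 CPM) and LPS + PPLG-4V-SA (56.8 ± 0.96 CPM) than with LPS (26.4 ± 2.8 CPM), at adjusted p = 1.33e-09 and 6.25e-08.

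Among 23 tested of 25 other phosphatases of immune signalling, 7 were higher and 13 lower with LPS against untreated (beside 30.8% and 28.4% of all genes), with a median log2 difference of -0.54 beside 0.02 over all genes. Against LPS, 8 were higher and 5 lower with LPS + POx-SA, 6 and 8 with LPS + PPLG-SA, 7 and 11 with LPS + PPLG-2V-SA. With LPS + PPLG-4V-SA 6 were higher and 9 lower than with LPS. The shares of all genes in these 4 comparisons were 22.2% to 30.8% higher and 24.1% to 30.7% lower, and several of the counts are near them. Ptpra, a receptor-type phosphatase that activates Src-family kinases, was lower with LPS (47.0 ± 1.9 CPM) than in untreated cells (109 ± 3.9 CPM), at adjusted p = 6.87e-09. It was higher than with LPS in all 4 polymer groups, at 132 ± 15 CPM with LPS + POx-SA, 166 ± 3.3 with LPS + PPLG-SA, 191 ± 6.4 with LPS + PPLG-2V-SA and 182 ± 6.4 with LPS + PPLG-4V-SA, and the largest adjusted p was 1.22e-09. Ptpn14, a tyrosine phosphatase with a FERM domain, was at 99.6 ± 12 CPM with LPS + POx-SA and at 0.631 to 0.780 CPM in the means of the PPLG groups, against 6.97 ± 0.68 CPM with LPS, and was called in each. Inppl1, the SHIP-2 gene, was lower with LPS (134 ± 11 CPM) than in untreated cells (234 ± 8.3 CPM), at adjusted p = 2.44e-07.

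Of 20 adaptors that can recruit SHP-1, SHP-2 or SHIP-1, 15 were tested. For LPS against untreated 4 were higher and 4 lower (beside 30.8% and 28.4% of all genes). Against LPS, 7 were higher and 3 lower with LPS + POx-SA, 2 and 6 with LPS + PPLG-SA, 2 and 9 with LPS + PPLG-2V-SA, and with LPS + PPLG-4V-SA 3 were higher and 4 lower, beside 22.2% to 30.8% of all genes higher and 24.1% to 30.7% lower. The list's median log2 difference was 0.35 with LPS + POx-SA, beside 0.00 over all genes, and -0.35 with LPS + PPLG-2V-SA, beside 0.03. Gab2, a docking protein for SHP-2, was at 285 ± 53 CPM with LPS + POx-SA and 60.6 ± 4.2 CPM with LPS + PPLG-2V-SA, against 136 ± 9.0 CPM with LPS (adjusted p = 8.33e-07 and 1.17e-07). Dok3, an adaptor that binds SHIP-1, was at 191 ± 21 CPM with LPS + POx-SA, against 74.2 ± 7.0 CPM with LPS (adjusted p = 2.07e-08), and the LPS level stood against 150 ± 10 CPM in untreated cells (adjusted p = 3.59e-07). Dok2 was higher with LPS + PPLG-4V-SA (103 ± 6.5 CPM) and LPS + PPLG-SA (92.4 ± 4.8 CPM) than with LPS (51.2 ± 9.1 CPM), at adjusted p = 2.04e-05 and 1.07e-04.

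Across the 18 libraries, the genes whose log2 CPM followed each receptor or phosphatase most closely were found by Pearson's r. These libraries share groups and scaling, so r is given as a description. Siglece was followed most closely by Ltb, the gene of lymphotoxin beta (r = 0.981), then Adsl (0.977) and Lama4 (0.974). Cd33 was followed by Insig1, a regulator of sterol synthesis (0.966), Dnajc27 (0.953) and Ptpra (0.945). For Siglec1 these were Zbp1, a nucleic acid sensor induced by interferon (0.952), Ifi207 (0.951) and Il27 (0.944). For Ptpn6 they were Sephs1 (0.989), the histone chaperone gene Asf1b (0.986) and Slbp (0.985). Ptpn11 was followed by Lclat1 (0.947), Ss18 (0.938) and Ift56 (0.935), and Inpp5d by Spag9 (0.949), Tra2a (0.942) and Klhl9 (0.941).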

How the data were processed

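The 18 libraries of RAW264.7 RNA, 3 per group, were grouped by the treatment in the labels. The deposited count table holds whole-number counts per gene symbol for 35510 genes, and the deposited FPKM table, normalized by the authors, holds 22384. Per the submitters' processing notes, CASAVA was used and the build is GRCm39. The aligner, the annotation, the counter and its use of strand were not given in the sources used here. Columns were matched to samples by title, and 0 columns belong to no sample.

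Counts were tested with edgeR 4.0.16 (R 4.3.3): filterByExpr (minimum count 10, minimum total 15) left 13482 genes, TMM factors were 0.812 to 1.15, and 1 quasi-likelihood fit with a term per group covered all libraries (12 residual degrees of freedom). P-values were adjusted by Benjamini-Hochberg within each of 15 comparisons. The scripts were tested on simulated data. Alternatives were DESeq2 1.42.0 and its size factors, plain totals, other filters, fits of 2 groups, a replicate block, limma 3.58.1 on log2 FPKM (pseudocounts 1 and 0.1), and each library left out. Totals of 9755591 to 19759549 counts limit genes near 3 counts.

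Whether replicate numbers pair libraries was examined by the correlation of deviations from group means. Of 45 same-numbered pairs 8 exceeded 0.1, and all 3 did so only for LPS and LPS + POx-SA (0.166, 0.164 and 0.739). Only these 2 groups met that rule. The labels do not state a pairing, and such correlations cannot settle it. The block in a fit of these 2 groups was added after seeing the data.

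The genes and lists were chosen with earlier results of these data known. Named list genes are the 2 called genes with the smallest p per list, for LPS against untreated cells and for each polymer against LPS, and a selection of these is printed. Like genes are the 3 with the highest r. No sequences were used here, and coordinates of a RefSeq table served only to find overlapping genes. A gene that the naming rule selected is not reported here.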

Additional observations from a re-analysis of the deposited data

How the results depend on the processing

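Of 90 comparisons of a gene (6 genes in 15 comparisons), 68 were called, and 55 of these kept their direction and their call under every alternative. They include all calls of Siglece, Cd33 and Siglec1 for the 3 PPLG polymers against LPS. On FPKM the sign of some Inpp5d calls turned round. For LPS + PPLG-SA against LPS it was -0.12 (log2, pseudocount 1, with or without a filter) and -0.13 (pseudocount 0.1). For LPS + PPLG-2V-SA against LPS + PPLG-SA it was 0.14 in each of these 3 settings. The uncalled Inpp5d difference of LPS + PPLG-4V-SA against LPS + PPLG-SA, -0.35 on the counts, was 0.02 on FPKM (pseudocount 1). With 1 library left out, Cd33 in LPS + PPLG-2V-SA against LPS + POx-SA ranged from -0.19 to 0.25. On plain totals the median of all genes moved, to 0.29 for LPS against untreated and 0.24 for LPS + PPLG-2V-SA against LPS. There 6 calls were lost and 2 gained. Lost for Inpp5d were LPS + PPLG-SA against untreated (-0.05) and against LPS + POx-SA (-0.20), and LPS + PPLG-2V-SA against LPS + PPLG-SA (-0.28). The other losses were Ptpn11 with LPS + PPLG-SA (-0.14) and LPS + PPLG-4V-SA (-0.11) against LPS, and Siglece with LPS + POx-SA against untreated (-0.59).

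Fits of only 2 groups gave 3 genes called here for LPS + PPLG-SA against LPS (6 in the fit of all libraries), 4 for LPS + PPLG-4V-SA against LPS + PPLG-SA (0) and 4 for LPS + PPLG-4V-SA against LPS + PPLG-2V-SA (2). Over all genes they called 3061 for LPS + POx-SA against LPS (6239), 6359 for LPS + PPLG-2V-SA against LPS + PPLG-SA (3766), 3369 for LPS + PPLG-4V-SA against LPS + PPLG-SA (223) and 4417 for LPS + PPLG-4V-SA against LPS + PPLG-2V-SA (1617). With replicate 3 left out of both LPS and LPS + POx-SA, the last 3 comparisons had 5664, 1432 and 3289 calls, and LPS + PPLG-4V-SA against LPS + PPLG-SA had 3 of the 6 genes called. In that comparison 1 of the 6 was called with plain totals, DESeq2, or limma with either pseudocount, and over all genes 335 with plain totals, 656 with DESeq2, 566 with limma and 405 with limma and no filter. With 1 library left out it had 0 to 1 of the 6 genes and 5 to 608 of all genes called, and LPS + PPLG-4V-SA against LPS + PPLG-2V-SA had 911 to 2140. The cause of these shifts was not tested. The replicate block over all 18 libraries ended no call of the 6 genes, and it gave 3081 genes higher and 3349 lower for LPS + POx-SA against LPS. Few counts of Siglece outside the PPLG groups, and of Siglecg throughout, limit what can be read from them.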
